A study of Homo sapiens with 6 samples.

Results

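The 47 genes described here act at the passage from G1 into S phase and in copying DNA. They were taken by symbol from the deposited table of exon counts, which holds 27234 genes, and each symbol matched 1 row. All 47 passed the low-count filter that left 9420 genes for testing. The rule that picked them used names only, and the list was drawn up with earlier results of these data known. The cells were A673, an established human line of Ewing sarcoma in which EWSR1 is fused to FLI1. Transfection was with siRNA to FLI1 in 3 libraries, called siFLI1, and with a scrambled control siRNA in 3, called siControl, and RNA was extracted after 48 h. All 6 libraries come from this 1 line, and the labels call them triplicates without saying that they were separate cultures or days.

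In late G1, cyclin E with its kinase completes the release of E2F transcription factors from the retinoblastoma protein family, and E2F then activates many genes of DNA synthesis. Origins are marked by the origin recognition complex (ORC). CDC6 and CDT1 load the MCM2 to MCM7 helicase there, and CDC45 and GINS join it to make the active helicase. DNA polymerases, the sliding clamp PCNA with its loader RFC, the single-strand binding protein RPA and the enzymes that finish Okazaki fragments then copy the strands. Ribonucleotide reductase, thymidylate synthase and thymidine kinase supply deoxynucleotides. Many of these transcripts are most abundant around the G1/S transition, so their level in a culture also reflects how many cells are in cycle.

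Promoter sequences are shown first because E2F binding letters are common in the promoters of these genes. The choice of members used names and no sequence. Since E2F activates many genes of DNA synthesis, the kind chosen here, a high share of matches was likely in advance and is no independent result. RefSeq promoter entries (GRCh38.p14, 250 bases before to 50 bases after a start) matched 40 of the 47 genes. The entry nearest the start of the gene's row was taken, with no limit of distance. That of UHRF1, which is counted below as holding a match, lay 6421 bases from the start of its row. The entries of MCM7 and SLBP lay 543 and 422 bases away. A 7-letter core of the E2F site (TTTGGCG, or else TTTCCCG, or else TTTCGCG, or else TTTGCCG, on either strand) was in 24 of these 40 (60.0%), in 14.1% of 7345 promoters of tested genes and in 8.7% of all 35116 entries. A shifted form of the core, chosen after the first search was seen (TTGGCGC, or else TTCCCGC, or else TTCGCGC, or else TTGCCGC), overlaps the first by 6 letters where both match 1 strand. Either form was in 32 of 40 (80.0%), against 28.3% of promoters of tested genes. The first core was in 1 of 6 promoters whose genes had all siFLI1 libraries below siControl, and in 23 of the other 34. Either form was in 4 of these 6 and in 28 of the other 34, and this split was not tested. The CCAAT box was in 57.5% of the 40 and 36.9% of tested genes. GGAAGGA, 7 letters that hold the GGAA core to which ETS factors such as FLI1 bind, was in 12.5% and 12.0%. The CHR element of late cell cycle genes (TTTGAA or TTCGAA) was in 3 of the 40 and in 27 of 35 promoters (77.1%) of a list of G2/M and mitosis genes. These are letter matches, not measured binding.

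The 6 stretches of 130 bases below end before the more upstream of the RefSeq start and the start of the row in the table, and read 5′ to 3′ on the gene's strand. Capitals mark matches to either form of the E2F core. The first 5 are shown for the transcription factor E2F1 itself, the loading factors CDC6 and CDT1, 1 helicase subunit and the clamp. The last is shown for RFC5, the member with the largest difference between the groups, and its stretch holds no match. A match of the shifted form lies 15 bases after its RefSeq start, outside the stretch, so RFC5 is among the 32.
E2F1, chr20:33686405-33686534, minus strand: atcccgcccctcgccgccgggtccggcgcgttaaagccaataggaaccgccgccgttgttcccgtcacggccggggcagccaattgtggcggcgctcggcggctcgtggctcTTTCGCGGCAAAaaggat
CDC6, chr17:40287749-40287878, plus strand: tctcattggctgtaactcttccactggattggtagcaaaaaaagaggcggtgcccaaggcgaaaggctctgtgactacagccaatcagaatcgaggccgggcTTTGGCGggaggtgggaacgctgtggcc
CDT1, chr16:88803648-88803777, plus strand: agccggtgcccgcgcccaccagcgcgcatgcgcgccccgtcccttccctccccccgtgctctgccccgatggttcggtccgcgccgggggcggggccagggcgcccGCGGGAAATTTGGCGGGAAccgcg
MCM6, chr2:135876478-135876607, minus strand: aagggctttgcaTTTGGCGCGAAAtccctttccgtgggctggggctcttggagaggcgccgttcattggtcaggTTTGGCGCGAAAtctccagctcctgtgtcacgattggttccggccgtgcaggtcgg
PCNA, chr20:5126623-5126752, minus strand: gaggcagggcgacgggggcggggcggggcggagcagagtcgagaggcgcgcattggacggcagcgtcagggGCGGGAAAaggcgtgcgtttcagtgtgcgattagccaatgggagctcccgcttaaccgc
RFC5, chr12:118016531-118016660, plus strand: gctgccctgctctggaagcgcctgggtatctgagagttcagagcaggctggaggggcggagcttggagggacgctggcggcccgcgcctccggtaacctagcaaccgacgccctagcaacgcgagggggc
The stretch of MCM6 holds the same run of capitals at 2 places, with matches on both strands, which begin 152 and 90 bases before the RefSeq start. The run of E2F1 begins 37 bases before its RefSeq start. Further matches of E2F1 begin 20 and 19 bases before its RefSeq start, and further matches of CDC6 begin 7 and 8 bases after its own. These run past the end of the stretch or lie beyond it, so they are not marked. In MCM6, E2F1, CDT1 and PCNA the matches of both forms overlap each other.

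Libraries held between 417145 and 1893606 counts assigned to genes. siFLI1 replicate 3 was the lowest. Its assigned counts were 10.1% of the total printed above its column, and those of the other libraries were 41.2% to 61.0%. It had counts in 14606 genes, within the 14024 to 14678 of the other libraries despite its fewer counts, for a cause not tested. It stood apart on the first principal component and siControl replicate 1 on the third, so results are also given without both. FLI1, the target, was at 19.0, 42.5 and 24.1 CPM (TMM-scaled counts over library size, the unit of all levels here) in siFLI1 replicates 1, 2 and 3, and at 63.0, 69.1 and 62.4 CPM in siControl. The fitted log2 difference of −1.16 ± 0.36 (SE) did not pass edgeR's test over all genes (adjusted p = 0.17). The 7 Ewing sarcoma markers were detected in every library and summed to 671 to 774 CPM in siFLI1 and 1163 to 1471 CPM in siControl. All 7 had a log2 fold change below 0 (median −0.91), and 2 of them, NR0B1 and PRKCB, passed edgeR's test as lower. The 5 epithelial markers summed to 225 to 257 CPM in siFLI1 and 177 to 225 CPM in siControl, mostly from KRT18 with some KRT8, and KRT5 was at 0 throughout. The 5 endothelial markers summed to at most 9.40 CPM in any library, with TEK at 0 throughout. The 5 erythroid and platelet markers summed to at most 0.54 CPM except in siFLI1 replicate 3 (16.1 CPM, of which HBB 13.4 CPM), with PF4 and PPBP at 0 throughout. Summed levels of the 7 fibroblast markers ran from 2225 to 2568 CPM in siFLI1 and from 817 to 1005 CPM in siControl, with DCN and LUM at or below 5.36 CPM. The collagen genes COL1A1, COL1A2 and COL3A1 held most of the sum in siFLI1. Of 5 tested, 3 passed edgeR's test as higher (background 1.34% of tested genes). THY1 went the other way, at 319, 311 and 177 CPM in siFLI1 and 484, 225 and 295 CPM in siControl. The 6 leukocyte markers summed to 69.3 to 83.7 CPM in siFLI1 and 47.4 to 59.8 CPM in siControl, mostly from CD68, and in siFLI1 replicate 3 also from PTPRC (42.8 CPM), with CD3E at 0 throughout. The part of these markers in the results below was not tested.

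The replication genes lay mostly below their control level in siFLI1, by a modest amount. Of the 47, 40 had a log2 fold change (siFLI1 over siControl) under 0, or 85.1%, where 49.6% of all tested genes did. The median was −0.42, against 0.01 over all tested genes. A median of −0.42 corresponds to 0.75 times the control level. Gene by gene, 0 of the 47 passed the quasi-likelihood test of edgeR at a Benjamini-Hochberg adjusted p of 0.05, which 1.45% of all tested genes passed (0.117% as lower and 1.34% as higher). At an unadjusted p below 0.05, 6 members were lower (background 4.13% of tested genes) and 0 were higher (background 6.62%). DESeq2 called 1 member lower, RFC5, where it called 31 of 9420 tested genes lower and 182 higher. With limma-voom 0 members were called, where 13 of 9420 tested genes were called lower and 127 higher. In 9 members (19.1%) the highest siFLI1 library was below the lowest siControl library, which held for 7.71% of tested genes, and in 0 members did each lie above (background 8.93%). Of the 47 values, 10 turned sign and 22 others moved by over 1.5 times when 1 library was left out, and 15 did neither. In bulk RNA, fewer cells in S phase and less RNA per cell cannot be told apart.

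**Figure D1:**
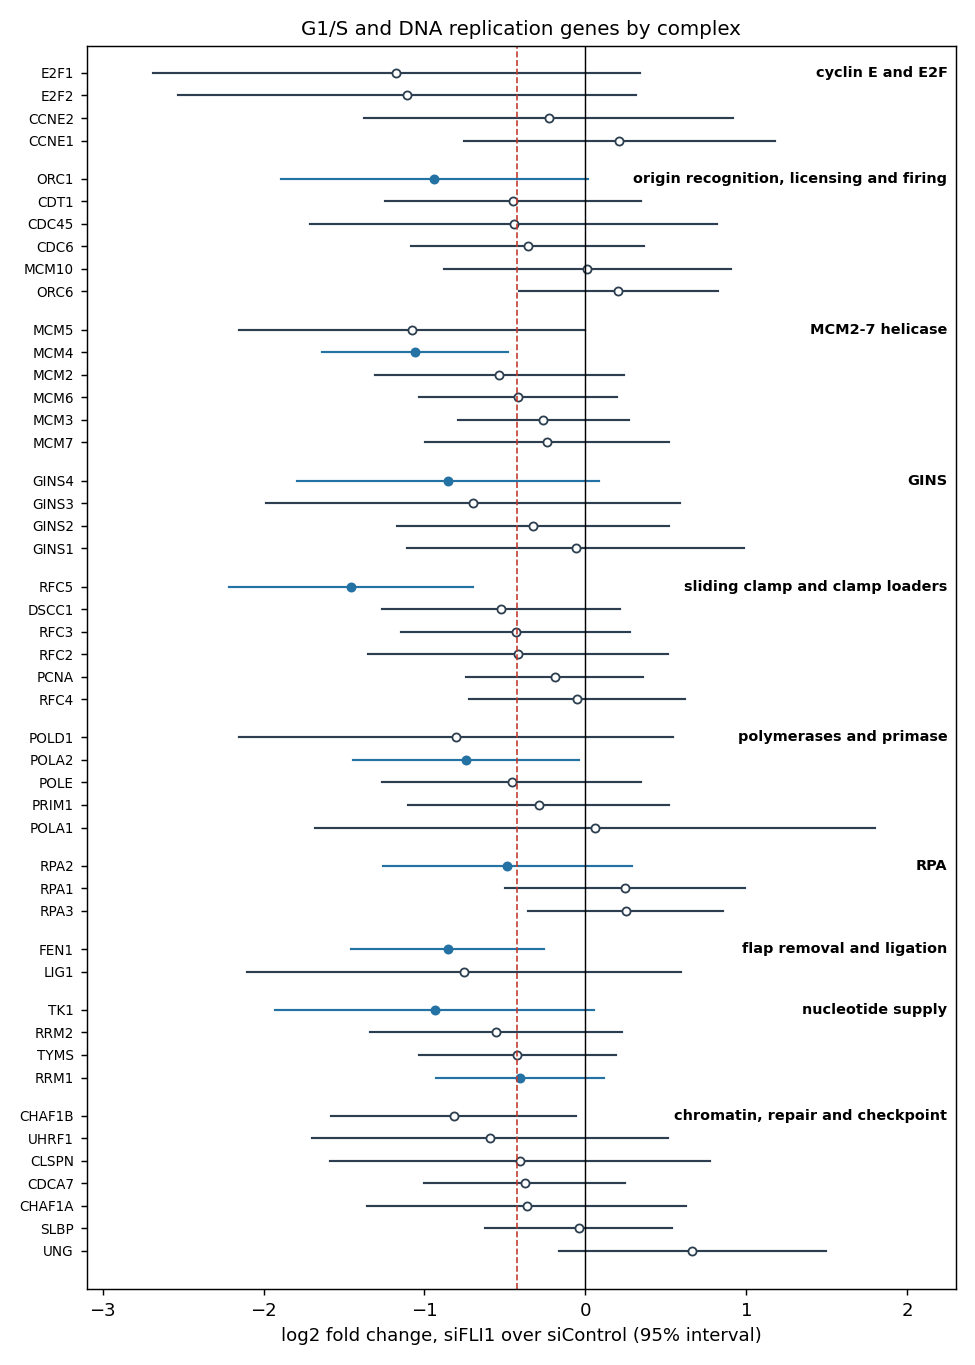
Log2 fold change of siFLI1 over siControl for the 47 genes by complex, with 95% intervals from edgeR. Filled blue points are the 9 genes whose siFLI1 libraries all lay below all siControl libraries, and the dashed red line is the median of the 47, −0.42. Most points lie left of 0 and most intervals cross it.

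The lower position of the group was present in each siFLI1 library. The median member was below its siControl mean by 0.42, 0.40 and 0.49 on the log2 scale in siFLI1 replicates 1, 2 and 3. Of the 47 genes, 10, 8 and 15 were above that mean in these libraries. In siControl the medians were 0.07, 0.02 and 0.02, where the deviations of each gene sum to 0 by construction. The median of all tested genes was between −0.01 and 0.03 in all 6 libraries, and TMM scaling tends to hold it near 0. Neither is an independent contrast to the siFLI1 medians. The counts of the 47 genes made up 0.364%, 0.366% and 0.287% of all counts in siFLI1 and 0.570%, 0.412% and 0.494% in siControl, so the groups did not overlap on this unscaled share either. RRM2 alone held from 17.8% to 39.1% of these counts. Without RRM2, the summed level of the other 46 was 2359, 2590 and 2635 CPM in siFLI1 and 3157, 3162 and 3210 CPM in siControl.

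**Figure D2:**
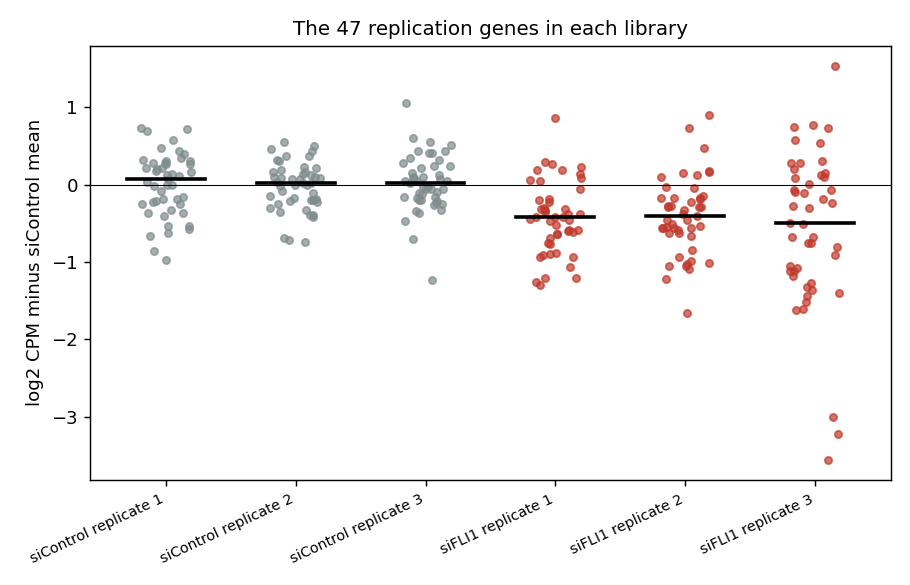
Level of each of the 47 genes in each library as log2 CPM minus the gene's siControl mean, with siControl in grey, siFLI1 in red and the median as a black bar. Medians were −0.42, −0.40 and −0.49 in siFLI1, and the spread was widest in siFLI1 replicate 3, the library with the fewest counts.

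Cyclin E and E2F came first in the pathway, and no member of this group of 4 had groups apart (median log2 fold change −0.67). CCNE1, the cyclin that activates CDK2 at the end of G1, was at 57.6, 27.9 and 29.5 CPM in siFLI1 and 15.1, 40.4 and 47.9 CPM in siControl. The libraries of the groups were interleaved. Its log2 fold change was 0.21 ± 0.45 (SE). The related CCNE2 was at −0.23 ± 0.54. E2F1, an activating E2F, was at 3.35, 7.97 and 0 CPM in siFLI1 and at 10.2, 14.1 and 6.84 CPM in siControl, from at most 24 counts a library. The 0 is in siFLI1 replicate 3, where a count of 0 allows a level of up to 8.03 CPM, the level of 3 counts. Without siFLI1 replicate 2 the value of E2F1 below became −2.06. E2F1 had a log2 fold change of −1.18 ± 0.71 and E2F2, a second activating E2F, −1.11 ± 0.66 (edgeR adjusted p = 0.612 and 0.608).

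Origin factors split. ORC1, the ATPase subunit of ORC whose level changes through the cycle (chromosome 1, 52372829 to 52404471, hg38), was at 10.6, 15.3 and 10.7 CPM in siFLI1 and at 26.9, 24.0 and 20.5 CPM in siControl. Each siFLI1 library was below each siControl library, and the fitted log2 difference was −0.94 ± 0.45 (SE; edgeR adjusted p = 0.479). ORC6, another subunit of ORC, was at 120.2, 79.7 and 147 CPM in siFLI1 and at 114, 96.6 and 84.6 CPM in siControl, with 0.20 ± 0.29. Its value was 0.023 without siFLI1 replicate 3. The intervals of both genes overlap, from −1.89 to 0.02 for ORC1 and from −0.41 to 0.82 for ORC6, and the difference between them was not tested. CDC6 was at −0.36 ± 0.34 and CDT1 at −0.45 ± 0.37, with libraries of both groups interleaved. CDC45, which joins the helicase at firing, was at −0.45 ± 0.59. Without siControl replicate 1, CDT1 was at −0.19 and CDC45 at −0.091. MCM10, a firing factor, was at 0.01 ± 0.42. The median of these 6 genes was −0.40.

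All 6 subunits of the MCM helicase had negative values, from −1.08 to −0.24, with a median of −0.48. MCM4 (chromosome 8, 47960203 to 47978159) was at 58.1, 51.8 and 50.9 CPM in siFLI1 and at 129, 99.6 and 109 CPM in siControl. The siFLI1 libraries lay close together at about 2.09-fold below the control level, clear of all siControl libraries. The log2 difference of −1.06 ± 0.27 (SE, with a 95% interval of −1.64 to −0.48) missed the threshold over all genes (edgeR adjusted p = 0.0763). MCM4 passed it with no low-count filter (adjusted p = 0.0458).

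MCM5 (chromosome 22, 35400123 to 35424502) was at 34.7, 23.9 and 2.68 CPM in siFLI1, the last from 1 count, and at 59.8, 28.7 and 59.8 CPM in siControl. Its siFLI1 replicate 1 lay above siControl replicate 2, and its log2 fold change of −1.08 ± 0.50 was −0.74 without siFLI1 replicate 3 (edgeR adjusted p = 0.462 with all libraries). MCM2 was at −0.53 ± 0.36, which was −0.28 without siFLI1 replicate 3 and came as near to 0 as −0.024 in another alternative. MCM6 was at −0.42 ± 0.29, which was −0.12 without siControl replicate 3. MCM3 was at 110.1, 116 and 131 CPM in siFLI1 and at 149, 152 and 125 CPM in siControl (log2 fold change −0.26 ± 0.25). MCM7 was at −0.24 ± 0.35, which was −0.068 without siFLI1 replicate 2. Both groups overlapped in these 4.

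Subunits of 1 complex can be set against each other within a library, where scaling between libraries plays no part. MCM4 made up 14.5%, 13.3% and 13.6% of the counts of MCM2 to MCM7 in siFLI1 and 21.5%, 19.9% and 18.1% in siControl. The Wilson 95% intervals, which cover counting error only, ran from 12.1 to 17.3%, 10.8 to 16.2% and 8.86 to 20.2% in siFLI1. In siControl they ran from 19.2 to 24.0%, 17.4 to 22.7% and 15.4 to 21.1%. The other 5 MCM genes had shares that overlapped between groups. The interval of siControl replicate 3 overlapped all 3 siFLI1 intervals. Of 19 subunit shares looked at in this way, 3 (MCM4, RFC5 and GINS4) were lower in siFLI1 without overlap of the libraries. Of the rest, 0 were higher and 16 overlapped, and none was tested. These 3 are among the 9 members without overlap on level, from the same counts, so their shares are no independent result. Shares within a complex also depend on each other. No background was computed for shares, and on level 7.71% of all tested genes were lower without overlap.

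**Figure D3:**
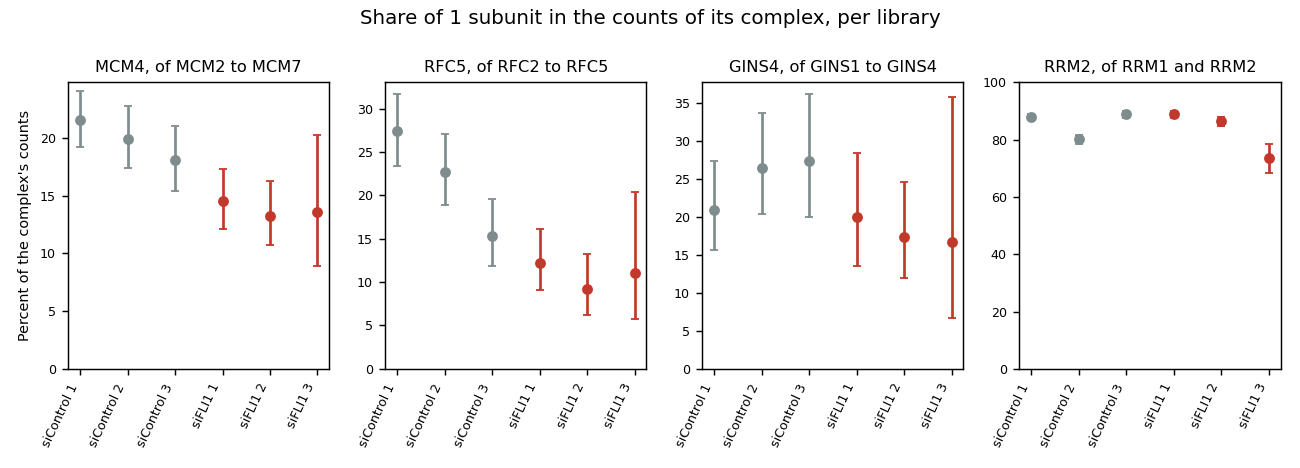
Percent of the counts of a complex that came from 1 subunit in each library, with Wilson 95% intervals for counting error, siControl in grey and siFLI1 in red. MCM4 ran from 13.3 to 14.5% in siFLI1 and from 18.1 to 21.5% in siControl, and RRM2 overlapped between the groups.

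GINS, the complex of 4 small subunits that holds CDC45 to the helicase, had a median of −0.51. GINS4 (chromosome 8, 41529206 to 41545046) was at 12.3, 15.9 and 10.7 CPM in siFLI1 and at 20.5, 25.8 and 26.5 CPM in siControl. The groups did not overlap, and the fitted log2 difference was −0.85 ± 0.44 (SE; edgeR adjusted p = 0.525). GINS3 was at −0.70 ± 0.60, GINS2 at −0.32 ± 0.39 and GINS1 at −0.06 ± 0.49. These 3 overlapped between groups, at 5 to 67 counts a library. The share of GINS4 in the counts of the complex was 20.0%, 17.4% and 16.7% in siFLI1 and 20.9%, 26.5% and 27.4% in siControl. These shares did not overlap, but their counting intervals did.

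The clamp loader held the largest difference of all 47 genes. RFC5, a small ATPase subunit of replication factor C (chromosome 12, 118016661 to 118032237), was at 22.4, 15.9 and 21.4 CPM in siFLI1 and at 64.6, 53.3 and 44.4 CPM in siControl, from 40, 24 and 8 against 120, 91 and 52 counts. Even the lowest siControl library was well above the highest siFLI1 library. The level was 2.75-fold lower by the fitted log2 difference of −1.46 ± 0.35 (SE, with a 95% interval of −2.22 to −0.70; edgeR adjusted p = 0.0623). RFC5 passed the threshold in DESeq2 (adjusted p = 0.0281) and in edgeR with no low-count filter (adjusted p = 0.0177), and over the fits without 1 library it ran from −1.60 to −1.30.

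Its partners had values nearer to 0, and the difference between them and RFC5 was not tested. RFC2 was at 82.2, 50.5 and 50.9 CPM in siFLI1 and at 39.3, 62.7 and 151 CPM in siControl, so that siControl replicate 3 stood high and the log2 fold change of −0.42 ± 0.43 turned to 0.28 without it. RFC3 was at −0.43 ± 0.33 and RFC4 at −0.05 ± 0.31. RFC5 made up 12.2%, 9.16% and 11.1% of the counts of RFC2 to RFC5 in siFLI1 and 27.4%, 22.8% and 15.3% in siControl. The Wilson 95% intervals of siControl replicate 3 (11.9 to 19.6%) and of the siFLI1 libraries (9.06 to 16.1%, 6.23 to 13.3% and 5.74 to 20.4%) overlapped.

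PCNA, the clamp itself, was at 367, 421 and 485 CPM in siFLI1 and at 517, 526 and 406 CPM in siControl. Its libraries were interleaved, and its log2 fold change was −0.19 ± 0.26 (SE; 95% interval −0.74 to 0.36). DSCC1, part of an alternative loader that acts in sister chromatid cohesion, was at −0.52 ± 0.34. The median of PCNA, the 4 RFC genes and DSCC1 was −0.43.

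Among the polymerases, POLA2, the regulatory subunit of DNA polymerase alpha (chromosome 11, 65261852 to 65298685), was at 40.8, 67.8 and 26.8 CPM in siFLI1 and at 78.1, 83.2 and 76.1 CPM in siControl. The controls lay close together and all siFLI1 libraries were below them, with a fitted log2 difference of −0.74 ± 0.33 (SE; edgeR adjusted p = 0.431). POLA1, the catalytic subunit of the same enzyme, was at 5.03, 3.32 and 26.8 CPM in siFLI1 and at 4.85, 8.78 and 12.8 CPM in siControl. It rested on 5 to 15 counts a library, and its value of 0.06 ± 0.81 became −1.03 without siFLI1 replicate 3. The catalytic subunits POLD1 of polymerase delta and POLE of polymerase epsilon were at −0.80 ± 0.63 and −0.46 ± 0.37. The primase PRIM1 was at −0.29 ± 0.38, and at −0.016 without siControl replicate 2. All 3 overlapped between groups, and the median of the 5 genes was −0.46.

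The RPA genes were the 1 group with a positive median (0.24), which rested on single libraries. RPA1, the large subunit, was at 34.1, 77.7 and 53.6 CPM in siFLI1 and at 53.9, 42.8 and 42.7 CPM in siControl (log2 fold change 0.24 ± 0.35) (SE). RPA3, the smallest subunit, was at 151, 193 and 286 CPM in siFLI1 and at 144, 203 and 175 CPM in siControl, with 0.25 ± 0.28. RPA1 turned to −0.15 without siFLI1 replicate 2 and RPA3 to −0.02 without siFLI1 replicate 3. RPA2, the middle subunit, was at 38.0, 36.5 and 16.1 CPM in siFLI1 and at 49.5, 39.2 and 46.2 CPM in siControl. Its groups did not overlap, by a narrow margin, and its log2 fold change was −0.48 ± 0.36 (edgeR adjusted p = 0.705).

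FEN1 cuts the flap of each Okazaki fragment and LIG1 seals the nick. FEN1 (chromosome 11, 61792637 to 61797242) was at 58.7, 74.4 and 42.8 CPM in siFLI1 and at 109, 103 and 116 CPM in siControl. The groups were well apart, and its log2 difference of −0.86 ± 0.28 (SE, with a 95% interval of −1.46 to −0.26) had the third smallest p of the members (edgeR adjusted p = 0.216). LIG1 was at 11.7, 4.65 and 2.68 CPM in siFLI1 and at 19.4, 8.20 and 8.55 CPM in siControl, with −0.76 ± 0.63. This became −1.57 without siFLI1 replicate 1 and −0.27 without siControl replicate 1. Its siFLI1 replicate 1 lay within the control range.

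The 4 genes of nucleotide supply had log2 fold changes below 0, with a median of −0.49, and 0 passed the test or an unadjusted p of 0.05. RRM2, the small subunit of ribonucleotide reductase (chromosome 2, 10122736 to 10131419), was at 1492, 1168 and 570.3 CPM in siFLI1 and at 1543, 1160 and 2063 CPM in siControl. Its groups overlapped, and its log2 difference of −0.56 ± 0.37 (SE; edgeR adjusted p = 0.652) was −0.25 without siFLI1 replicate 3. RRM1, the large subunit, was at 187, 183 and 203 CPM in siFLI1 and at 212, 286 and 261 CPM in siControl. Its groups did not overlap, and the difference was small, −0.41 ± 0.24. RRM2 took 73.7 to 88.9% of the counts of the pair in siFLI1 and 80.2 to 88.8% in siControl.

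TK1, the thymidine kinase of the salvage route (chromosome 17, 78174079 to 78187204), was at 15.1, 9.30 and 13.4 CPM in siFLI1 and at 29.6, 17.6 and 24.8 CPM in siControl. Each siFLI1 library was below each siControl library, with a fitted log2 difference of −0.94 ± 0.46 (SE; edgeR adjusted p = 0.499). TYMS, thymidylate synthase, was at 115, 126 and 75.0 CPM in siFLI1 and at 107, 159 and 168 CPM in siControl, with −0.42 ± 0.29. Its low control library, replicate 1, lay below 2 of the siFLI1 libraries.

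**Figure D4:**
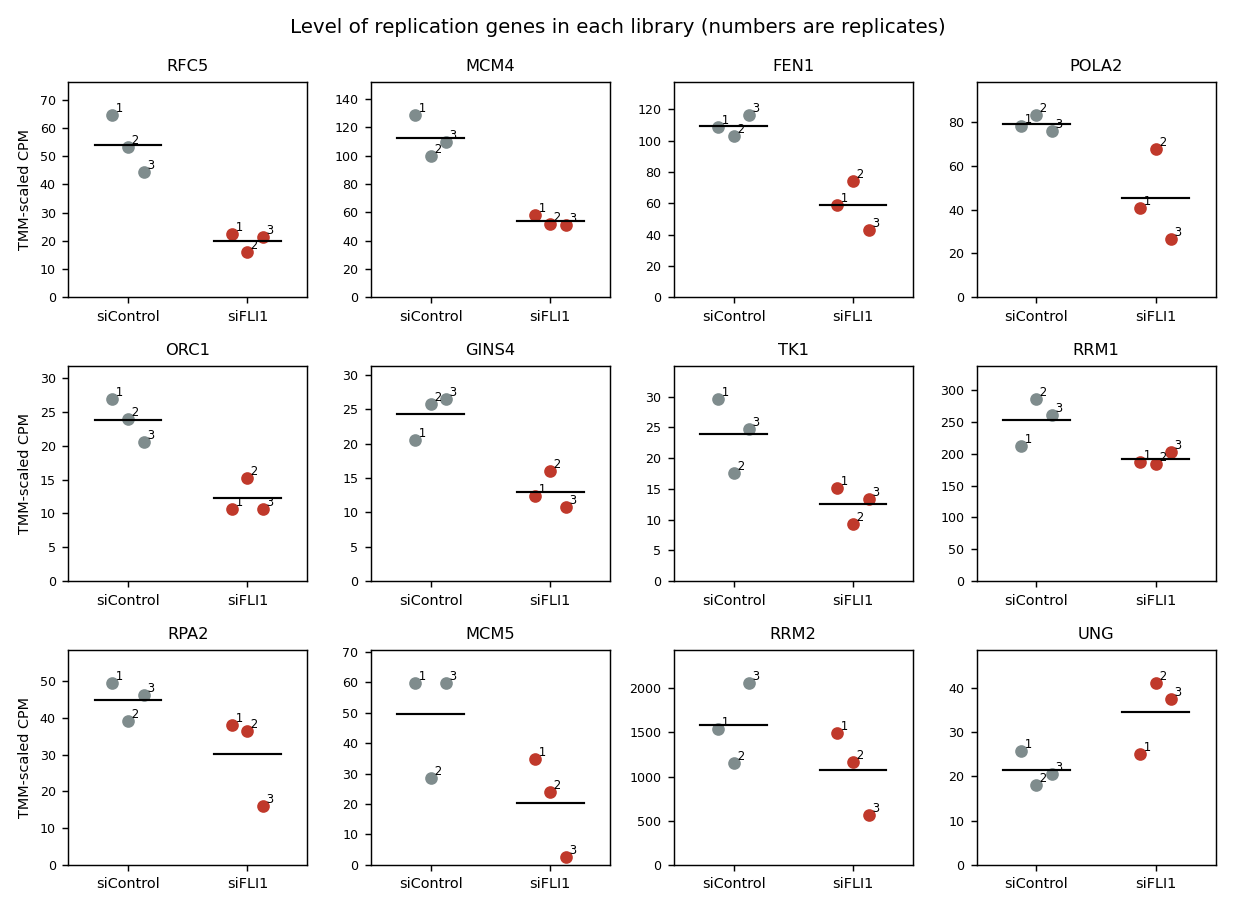
TMM-scaled CPM by library for 12 of the genes, with siControl in grey, siFLI1 in red, numbers for replicates and bars for means. RFC5 ran from 15.9 to 22.4 CPM in siFLI1 and from 44.4 to 64.6 CPM in siControl. RRM2, MCM5 and UNG overlapped between the groups, and UNG had its higher mean in siFLI1.

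Chromatin, repair and checkpoint members had a median of −0.38, and none had groups apart. CHAF1B, a subunit of the chromatin assembly factor that places histones on new DNA (chromosome 21, 36385391 to 36416827), was at 46.97, 97.0 and 66.9 CPM in siFLI1 and at 156, 70.9 and 147 CPM in siControl. Its siControl replicate 2 lay within the siFLI1 range, and its log2 fold change was −0.82 ± 0.36 (SE; edgeR adjusted p = 0.424). CHAF1A, its partner, was at −0.36 ± 0.46. UHRF1, which brings the maintenance DNA methyltransferase to new DNA, was at −0.59 ± 0.52 (−0.23 without siFLI1 replicate 1), and the chromatin remodelling factor CDCA7 at −0.38 ± 0.29. The checkpoint adaptor CLSPN was at 10.1, 9.30 and 34.8 CPM in siFLI1 and at 25.3, 18.2 and 17.9 CPM in siControl. Its value of −0.41 ± 0.55 was −1.08 without siFLI1 replicate 3, the 1 siFLI1 library above the controls. SLBP, which binds the stem-loop of histone mRNA, was at −0.04 ± 0.27.

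UNG had the highest log2 fold change of the 47 genes. This uracil-DNA glycosylase (chromosome 12, 109098118 to 109110993) was at 25.2, 41.2 and 37.5 CPM in siFLI1 and at 25.8, 18.2 and 20.5 CPM in siControl. Its siFLI1 replicate 1 lay just under siControl replicate 1. The log2 difference of 0.66 ± 0.39 (SE, with a 95% interval of −0.16 to 1.49) missed the threshold (edgeR adjusted p = 0.601). Over all alternatives run it stayed positive, from 0.49 to 0.87.

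Other genes of the pathway, from lists written with earlier results of these data known, lay on the same side. Of 36 tested genes of other replication machinery, 0 passed edgeR's test in either direction (at an unadjusted p below 0.05, 2 were lower and 0 higher), 26 were below 0 and the median log2 fold change was −0.21. POLD2, a subunit of polymerase delta, was at −0.91 ± 0.34 (SE), SUPT16H at −1.09 ± 0.41 and SSRP1 at −0.67 ± 0.32, the last pair being the subunits of the FACT histone chaperone. TOP1, the topoisomerase that relieves twist ahead of the fork, had siFLI1 libraries that all lay above siControl, at 0.64 ± 0.32, and was picked out for its direction once values were known. Of 21 tested genes of other nucleotide supply, 0 passed (at an unadjusted p below 0.05, 2 were lower and 0 higher), and the median was −0.23. DCK, deoxycytidine kinase, was at −1.19 ± 0.44 and the thymidylate kinase DTYMK at −0.78 ± 0.29. Of 21 tested genes of other G1/S control, 0 passed (at an unadjusted p below 0.05, 4 were lower and 0 higher), and the median was −0.38. The smallest p was that of MYBL2, a transcription factor that takes over from E2F later in the cycle (−1.21 ± 0.36, edgeR adjusted p = 0.16), followed by the CDK-binding protein CKS2 (−0.90 ± 0.32) and the E2F partner TFDP2 (−1.09 ± 0.45).

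Neighbouring lists had similar medians. For G2/M and mitosis, 35 of 41 tested genes were below 0 with a median of −0.42, and 0 passed edgeR's test (at an unadjusted p below 0.05, 6 were lower and 0 higher), with SMC2 at −1.03 ± 0.33 (SE), BUB1B at −1.14 ± 0.38 and PLK1 at −1.10 ± 0.37. For D cyclins, CDK4/6 and CDK inhibitors, 8 of 9 tested genes were below 0 with a median of −0.46, and 0 passed (at an unadjusted p below 0.05, 2 were lower and 0 higher). The inhibitor CDKN1A was at −0.52 ± 0.30, CDKN3 at −0.87 ± 0.31 and CCND1 at −1.18 ± 0.42. All siFLI1 libraries lay below all siControl libraries in 10 of 41 tested G2/M and mitosis genes (24.4%). This held for 3 of 9 tested genes of the D cyclin list (33.3%), 9 of the 47 (19.1%) and 7.71% of all tested genes. That share was 22.2% (8 of 36) for other replication machinery and 28.6% (6 of 21) each for other nucleotide supply and other G1/S control. The difference between these lists and the 47 genes was not tested, and the lists share the same 6 libraries.

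**Figure D5:**
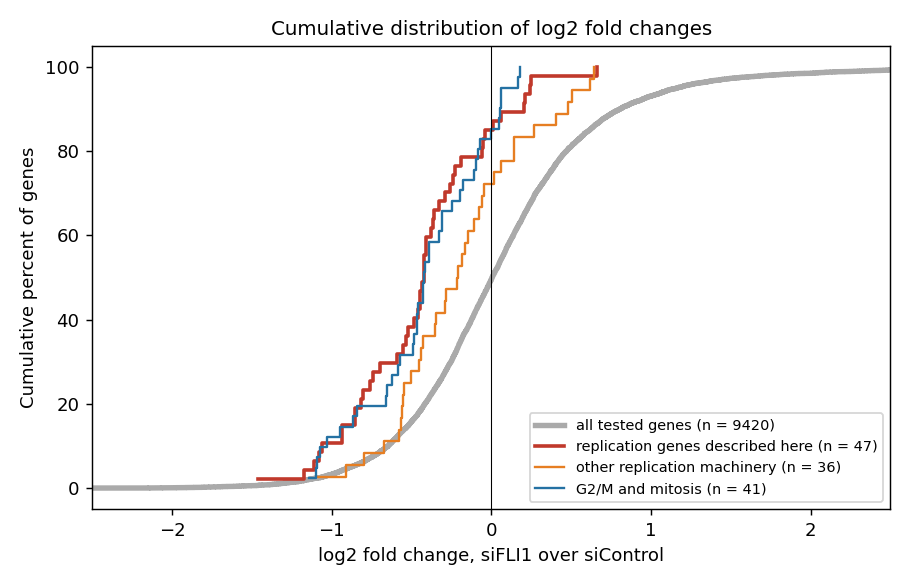
Cumulative percent of genes by log2 fold change of siFLI1 over siControl for all 9420 tested genes (grey), the 47 genes (red), 36 genes of other replication machinery (orange) and 41 G2/M and mitosis genes (blue). The red curve crosses 0 at 85.1% and the grey curve at 49.6%, and the blue curve runs close to the red.

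Rows of 10 members overlap another row of the table, and the sources used here do not say if reads were assigned by strand. Reads of TYMS (with ENOSF1 and TYMSOS), RPA3 (UMAD1), RFC4 (EIF4A2), CCNE2 (INTS8) and MCM7 (AP4M1) may be shared with neighbours that had counts. The rows that overlap PCNA, GINS4, E2F2, POLA1 and UHRF1, and the microRNA rows within MCM7, held 0 counts in all 6 libraries. The transcripts that stand for MCM2 and LIG1 in the table are non-coding RefSeq models of these genes.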

How the data were processed

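Bulk RNA of 6 libraries was read from the 3' end in a form of MARS-seq, per the labels' protocols. The authors deposited raw counts for each gene's exons. Each gene has 1 RefSeq transcript in the table. Per the submitters' processing notes, which give no role or order, bcl2fastq, HISAT 0.1.5, HOMER and hg38 were used. Barcode collapsing and strand use are not given in the sources used here. Columns were matched to samples by title. No 2 libraries of a group agreed within counting noise (lowest chi-square over its degrees of freedom 6.78). No label states separate cultures, so p-values reflect only how these libraries vary.

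Genes were kept by filterByExpr (minimum count 10, minimum total 15) and scaled by TMM. Differences were tested over all 9420 genes with edgeR 4.0.16 in R 4.3.3 (glmQLFit with robust=TRUE, glmQLFTest, two-sided, Benjamini-Hochberg adjusted p under 0.05). SE and 95% intervals come from the quasi-likelihood F statistic. Deviations by library use log2 CPM with a prior count of 2. Members and lists were chosen with earlier results of these data known. All 47 members could be named, with FLI1 and up to 3 genes of each other list by smallest p. Alternatives were other scalings and filters, DESeq2 1.42.0, limma-voom (limma 3.58.1), a replicate block, left-out libraries and an adjusted p of 0.10.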

Additional observations from a re-analysis of the deposited data

How the results depend on the processing

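No alternative turned the sign of the median of the 47 genes, which lay from −0.55 (scaling by total counts) to −0.39 (without siFLI1 replicate 3). Total counts also moved the median of all tested genes to −0.12, and with it the median of other replication machinery to −0.32 and that of G2/M genes to −0.55. Relative to all genes, the 47 lay 0.43 lower under total counts and 0.43 lower as reported. The count of members called lower was 0 as reported and in each fit without 1 library. It was 1 in DESeq2 (RFC5), where 31 of 9420 tested genes were called lower. It was 2 (MCM4 and RFC5) with no low-count filter, where 62 of 18819 genes were called lower. At an adjusted p of 0.10 it was also 2 (MCM4 and RFC5), where 37 of 9420 genes were called lower. The count of members called higher was 0 in each fit run, where 64 to 306 of all tested genes were called higher. With the replicate number as a replicate block, members called lower stayed at 0 and genes called over the table were 99 higher and 2 lower, against 126 and 11. Same-numbered libraries did not deviate together (r of −0.03, −0.01 and −0.05 over tested genes), so the numbers were not taken as pairs.

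Over the fits without 1 library, the median of other replication machinery ran from −0.37 to −0.093 and that of RPA from −0.15 to 0.44. The medians of origin factors (−0.39 to −0.23), chromatin members (−0.48 to −0.21), other nucleotide supply (−0.39 to −0.19) and other G1/S control (−0.59 to −0.35) also moved by over 1.5 times in at least 1 of these fits. Without both siFLI1 replicate 3 and siControl replicate 1 other replication machinery was at −0.34 and RPA at −0.15, flap removal and ligation at −0.38 and D cyclins at −0.27. Over the fits without 1 library and the fit without both, CCNE1 ran from −0.26 to 0.50, CCNE2 from −0.59 to 0.031, MCM10 from −0.45 to 0.31, CDC45 from −0.85 to 3.6e-04 and GINS1 from −0.39 to 0.36. RFC2 ran from −0.80 to 0.28, RFC4 from −0.19 to 0.22, SLBP from −0.18 to 0.14, CHAF1A from −0.88 to 0.22, RPA1 from −0.15 to 0.53, RPA3 from −0.15 to 0.44 and POLA1 from −1.34 to 0.64. MCM10 was at −0.075 under total counts, −0.016 under upper quartile scaling, −0.042 with no low-count filter and −0.047 in limma-voom. POLA1 was at −0.00957 under total counts, −0.55 in limma-voom and −0.042 with the replicate block. The cause of these changes was not tested. Depth limited members with few counts, since 3 counts correspond to 8.03 CPM in siFLI1 replicate 3 and to at most 2.56 CPM in the other libraries.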
